A study of Mus musculus with 16 samples.

Results

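Mouse bone marrow libraries labelled Week2 and described as CD45.2 cells were set against libraries labelled Day0 and described as LSK cells, the lineage-negative, Sca-1+, Kit+ fraction that holds blood stem cells and early progenitors. The libraries were chosen by their time label alone: 11 of the 16 in the count table, of which 6 were Week2 (3 labelled Gata2 and 3 labelled WT) and 5 were Day0 (3 labelled Gata2 and 2 labelled WT). Both genotype labels were kept in each group and the label was a covariate in the fit. The Gata2 label stands for haploinsufficiency of this transcription factor gene, as the series' title and design text describe it, with 1 of 2 gene copies working. The promoter, the allele's construction, the age of the mice and the number of animals behind a library are not given in the labels. The design text describes a transplant of a small number of sorted LSK cells into irradiated WT mice, but no label says in so many words that a Week2 library came from such a recipient. Time and cell type change together here, so a difference can be of either, and it is called only a difference between Week2 marrow and Day0 LSK cells.

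Blood stem cells in marrow carry a transcription factor program built around GATA2, TAL1, LMO2, RUNX1, ERG, FLI1 and LYL1, together with Hoxa genes, Meis1 and Hlf, and they need the receptor Kit. As progeny commit, that program is shut down and lineage programs replace it: granule proteins in the order of neutrophil maturation, pre-B-cell receptor components and recombination enzymes in B cell precursors, and globins, heme enzymes and membrane skeleton proteins in red cell precursors. CD45 is a surface protein of nearly all blood cells except mature red cells and platelets, and its CD45.2 form is used to tell donor from host cells in congenic mice. In bulk RNA a lower level can mean fewer cells of a type or less RNA per cell, and the 2 cannot be told apart.

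The libraries were deep but unequally so, with 176933583 to 320717267 gene counts in Week2 and 19618830 to 68305582 in Day0, and at least 1 count for 38750 to 42508 genes in Week2 against 22150 to 30564 in Day0. Levels below are CPM (counts scaled to library size) adjusted by the trimmed mean of M values (TMM). Log2 fold changes are Week2 over Day0 from edgeR's quasi-likelihood test, with Benjamini-Hochberg adjustment over all 29311 genes tested. A gene is called higher or lower at an adjusted p under 0.05. The labels do not state whether replicates are different mice, so the p-values measure the spread between these samples. Day0_WT replicate 2, Day0_Gata2 replicate 3 and Week2_Gata2 replicate 3 had the Xist and Ddx3y levels of females and the other 8 those of males. Genes for long intergenic RNAs (lincRNAs) took 0.366 to 0.598% of counts in Week2 and 2.89 to 6.21% in Day0, and 4 repeat-rich genes took 0.734 to 0.898% against 5.10 to 9.33%. The protocol names 2 library kits without saying which sample had which, so a kit difference cannot be told apart from the groups. Day0_WT replicate 1, the shallowest library, correlated with the other Day0_WT library at only 0.886 (log2 CPM across genes), where the 3 Day0_Gata2 libraries reached 0.992 to 0.995. In 3 Week2 libraries (Week2_Gata2 replicates 1 and 2 and Week2_WT replicate 1) transcripts of GENCODE's provisional class TEC held 0.0541 to 0.0947% of counts, and in the other 3 they held 0.202 to 0.316%.

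Over all genes, 11443 of 29311 (39%) were higher in Week2 and 4855 (16.6%) were lower, and a test against a fold of 2 left 8682 higher (29.6%) and 1932 lower (6.59%). The median log2 fold change over all genes tested was 0.64, over protein-coding genes 0.24, and over the 11049 protein-coding genes with at least 5 CPM in a group -0.18. Among those 11049 the balance turned, with 20.1% higher and 32.7% lower (9.65 and 11.8% past the fold of 2). The many rises are thus mostly of genes with low levels. Such genes could pass the low-count filter on their Week2 level alone. Against this background stand 41 lists of genes of blood lineages and cell functions, with 585 distinct genes, of which 580 passed the low-count filter. Hoxa11, Hoxb8, Hbb-bh1, Bglap2 and Hist2h3b did not. Of the 580, 198 were higher, 162 were lower and 220 were not called, and 141 higher and 129 lower had no overlap between the 6 Week2 and the 5 Day0 libraries, where 28.5% of all genes lay wholly above and 12% wholly below. Genes named below beyond those of the naming rule were chosen after their values were seen.

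**Figure D1:**
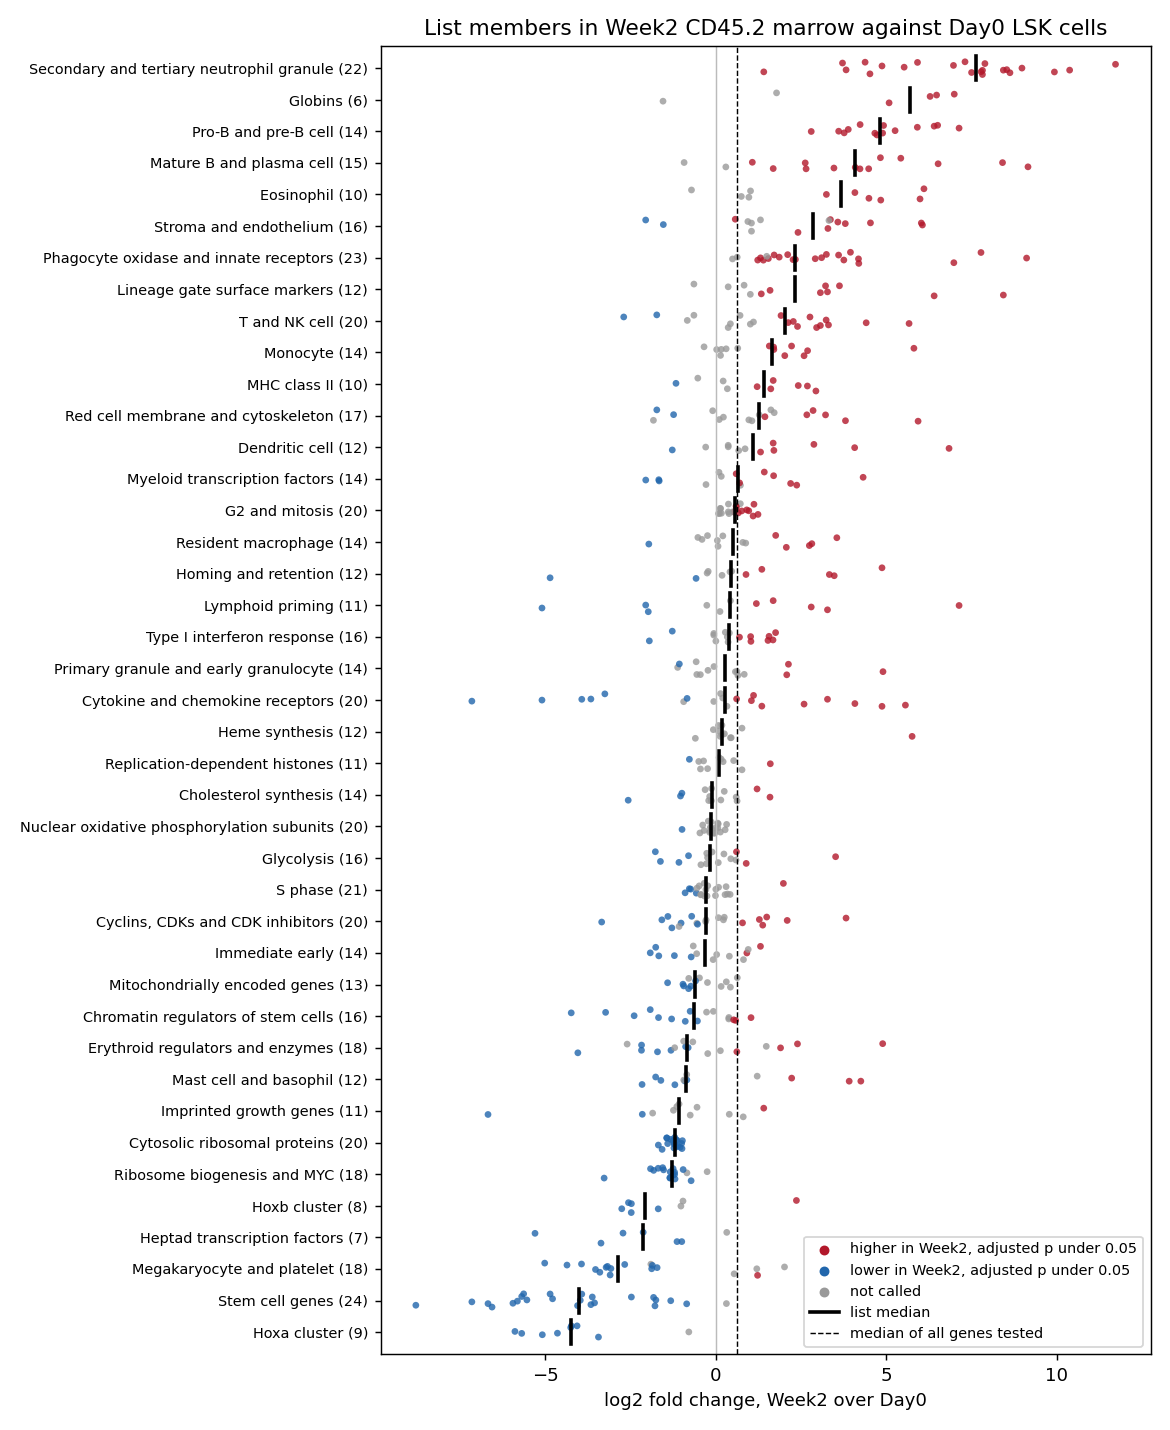
Log2 fold change of Week2 marrow over Day0 LSK cells (horizontal axis) for every tested gene of the 41 lists (one line per list; dots are genes, black bars the list medians, and the dashed line the median of all genes tested, 0.64). Neutrophil, pre-B, mature B and globin genes lie far to the right, with list medians of 7.64, 4.81, 4.09 and 5.68, while stem cell, Hoxa, megakaryocyte, ribosome biogenesis and ribosomal protein genes lie to the left.

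The gene behind the genotype label and the genes of the sort came first. Gata2 (chr6:88193891-88207032 in GRCm38), which encodes a zinc finger factor that stem and early progenitor cells need, stood at 27.0, 10.6 and 9.01 CPM in the Week2 Gata2-labelled libraries and 10.9, 15.3 and 11.6 CPM in the Week2 WT libraries, against 664, 817 and 745 CPM in the Day0 Gata2-labelled libraries and 413 and 352 CPM in the Day0 WT libraries. Every Week2 library lay below every Day0 library. The fall was -5.29 ± 0.31 on the log2 scale (± SE, as throughout; adjusted p = 8.96e-08). It was -5.58 within the Gata2 label and -4.92 within the WT label. Levels of this gene were not lower in the Gata2-labelled than in the WT libraries at Day0, so its total count does not mark the label in the direction of the loss of a copy.

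Kit, the stem cell factor receptor that defines the K of LSK, had 55.8, 26.9 and 19.1 CPM in Week2 Gata2-labelled and 45.6, 64.5 and 34.99 CPM in Week2 WT libraries, against 592, 777 and 616 and, for WT, 552 and 504 CPM in Day0 (log2 fold change -3.92 ± 0.31, adjusted p = 9.71e-07). Cd34, a surface sialomucin of progenitors, had 18.1, 5.27 and 14.7 CPM in Week2 Gata2-labelled and 12.8, 21.2 and 15.2 CPM in Week2 WT libraries, against 874, 903 and 848 CPM and 345 and 695 CPM in the Day0 Gata2-labelled and WT libraries (-5.62 ± 0.39, adjusted p = 2.88e-07). Both genes separated the groups without overlap. Ly6a, which encodes Sca-1, did not: Week2 libraries spread over 7.74 to 71.0 (median 19.3) CPM and overlapped the Day0 range of 52.3 to 76.2 (median 69.6) CPM. The highest Week2 value was in Week2_Gata2 replicate 1. Its fall of log2 fold change -1.31 ± 0.47 (adjusted p = 0.0300) did not pass the test in 6 of 28 alternative settings, among them the fits without Week2_WT replicate 2 or 3 and without either Day0_WT library. Its log2 fold change ranged from -2.92 to -0.58 over the settings. Ptprc, the gene for CD45 itself, rose, with 1016, 638 and 499 CPM in Week2 Gata2-labelled and 741, 693 and 365 CPM in Week2 WT libraries, all above the highest of the Day0 values of 243, 254 and 256 CPM for the Gata2 label and 320.3 and 232 CPM for WT (1.34 ± 0.24, adjusted p = 6.66e-04).

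The protocol describes lineage-negative marrow for all samples, and the genes of a usual lineage gate give the other side of that check. Of 12 such genes 8 were higher in Week2, Ptprc among them, and none was lower. Ly6g (a neutrophil surface protein) and Itgam (the CD11b integrin chain) averaged 115 ± 72.1 and 735 ± 463 CPM in Week2 (SD, n = 6) and 0.302 ± 0.236 and 59.4 ± 19.3 CPM in Day0 (SD, n = 5). Their log2 fold changes were 8.43 and 3.63. Of the T cell gate genes Cd3e, Cd4, Cd5 and Cd8a were not called, and Cd8b1 was higher, at 2.41 ± 0.772 CPM in Week2 and 0.789 ± 0.267 CPM in Day0 (1.59 ± 0.43, adjusted p = 0.00728). Cd3e was at 1.32 ± 0.986 CPM in Week2 and 2.00 ± 0.403 CPM in Day0 (log2 fold change -0.64 ± 0.57, adjusted p = 0.359). The Week2 libraries thus go against the lineage-negative description in their granulocyte transcripts, while the Day0 libraries carry Kit and Ly6a as the LSK label says.

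**Figure D2:**
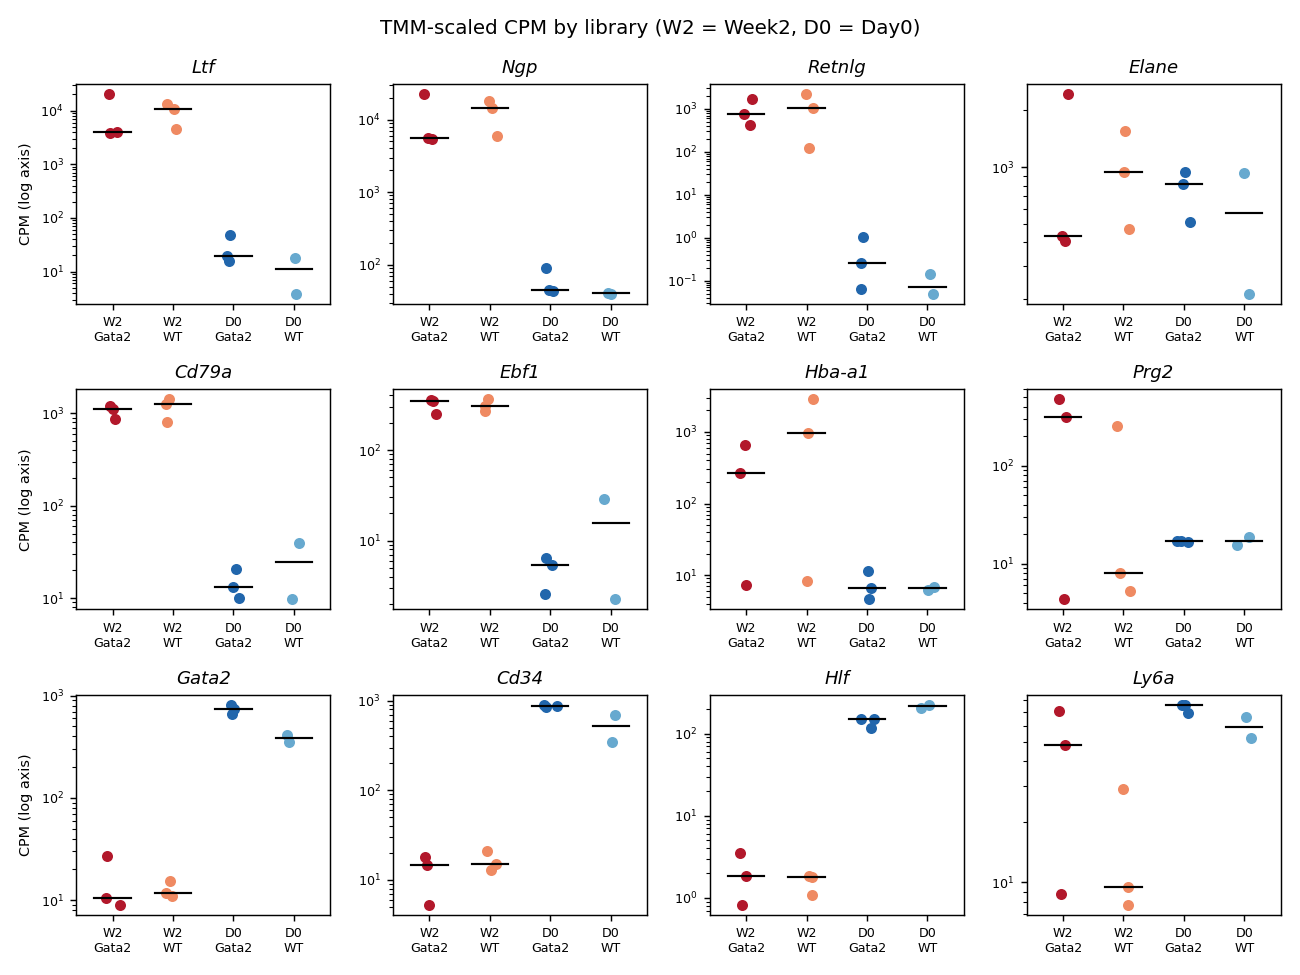
TMM-scaled CPM (log axis; values below 0.05 are drawn at 0.05) of 12 genes in each of the 11 libraries, in the order Week2 Gata2-labelled, Week2 WT, Day0 Gata2-labelled and Day0 WT, with a line at each group's median. Ltf, Ngp, Retnlg, Cd79a and Ebf1 are high in every Week2 library, and Gata2, Cd34 and Hlf are high in every Day0 library. Hba-a1 and Prg2 are high in some Week2 libraries. In the others Hba-a1 is at about the Day0 level and Prg2 is below it.

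Stem cell genes were nearly all lower. Of 24 genes 23 were lower in Week2, 21 of them past the fold of 2 and 20 without overlap, and none was higher. The list median was -4.00. Their summed level was 133 to 218 CPM (median 157) in Week2 libraries and 2357 to 2995 CPM (median 2624) in Day0 libraries. Hlf, a leucine zipper factor of self-renewing stem cells, had 3.48, 0.824 and 1.85 CPM in Week2 Gata2-labelled and 1.82, 1.80 and 1.09 CPM in Week2 WT libraries, against 117, 152 and 151 CPM and 226 and 206 CPM in Day0 Gata2-labelled and WT libraries (-6.55 ± 0.39, adjusted p = 9.30e-08). Meis1, the homeodomain partner of Hoxa9, ranged over 1.71 to 4.44 (median 3.85) CPM in Week2 and 185 to 253 (median 201) CPM in Day0 (-5.94 ± 0.27, adjusted p = 1.55e-08). Nkx2-3, another homeobox gene, had the largest fall of the list, with 0.0456 to 0.142 (median 0.108) CPM in Week2 against 28.2 to 67.6 (median 38.5) CPM in Day0 (-8.78 ± 0.40, adjusted p = 1.54e-08). Angpt1, the ligand of the receptor Tek, and Tek itself fell by log2 fold changes of -4.78 and -3.65; Procr, the protein C receptor used to sort stem cells, by -5.81; and Mecom and Prdm16, related zinc finger factors, by -3.61 and -3.55. Slamf1, the CD150 gene, was the smallest fall called (-0.85 ± 0.33, adjusted p = 0.0430), and Ctnnal1, a catenin-like gene, was not called, at 15.4 ± 2.88 CPM in Week2 and 12.4 ± 3.66 CPM in Day0.

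The partners of GATA2 did not fall alike. Of the 7 factors 6 were lower in Week2, all 6 without overlap, and the median was -2.12. Lmo2, the bridging protein of the complex, had 166, 57.0 and 41.5 CPM in Week2 Gata2-labelled and 95.3, 75.9 and 66.1 CPM in Week2 WT libraries, against 862, 857 and 851 CPM and 715 and 1020 CPM in Day0 (-3.36 ± 0.32, adjusted p = 4.79e-06). Tal1, the basic helix-loop-helix member, and Erg, an ETS factor, changed by -2.71 ± 0.55 and -2.12 ± 0.25, while Runx1 and Lyl1 changed by -1.13 ± 0.13 and -0.99 ± 0.19, and neither of these 2 passed the test against a fold of 2. Fli1, the other ETS factor, was not called: it averaged 166 ± 36.02 CPM in Week2 (SD, n = 6) and 135 ± 25.1 CPM in Day0 (SD, n = 5; log2 fold change 0.33 ± 0.18, adjusted p = 0.148).

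Homeobox genes of the Hoxa and Hoxb clusters were mostly lower. Of 9 Hoxa genes tested 8 were lower, with a median of -4.24. Hoxa9 had 4.50, 1.23 and 1.53 CPM in Week2 Gata2-labelled and 1.18, 1.45 and 1.23 CPM in Week2 WT libraries, against 71.7, 82.6 and 78.4 CPM and 116 and 116 CPM in Day0 (-5.68 ± 0.41, adjusted p = 4.54e-07). Hoxa10, Hoxa5 and Hoxa7 changed by -5.88, -5.08 and -4.25. Of 8 Hoxb genes 5 were lower, led by Hoxb4 at 1.15 ± 0.278 CPM in Week2 and 6.55 ± 3.61 CPM in Day0 (-2.47 ± 0.37, adjusted p = 2.07e-04). With counts thinned to the shallowest library 2 were lower. Levels were low, as for Hoxb6 at 0.0390 to 0.167 CPM in Week2 and 0.418 to 0.897 CPM in Day0. Hoxb1 was the exception, higher by 2.37 ± 0.75 (adjusted p = 0.0164) but at 0.790 ± 0.578 CPM in Week2 and 0.151 ± 0.106 CPM in Day0, and its call was lost with a replicate block, without Week2_Gata2 replicate 3 and without the 3 Week2 libraries of high TEC share. Imprinted growth genes were mostly not called (1 higher and 2 lower of 11). Grb10, an adaptor that restrains insulin receptor signalling, fell by 2.15 on the log2 scale to 4.89 ± 1.98 CPM in Week2, against 21.7 ± 6.84 CPM in Day0. Igf2r, the receptor that clears IGF2, was higher by 1.41 ± 0.39, a call that was lost with all 16 libraries in the fit and without the 3 Week2 libraries of low TEC share.

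Neutrophil genes were the other pole. All 22 genes of the neutrophil list were higher in Week2, 21 past the fold of 2 and 20 without overlap, with a median log2 fold change of 7.64, where 39% of all genes were called higher and the median was 0.64. Together they summed to 27710 to 129800 CPM (median 56270) in Week2 libraries and 841 to 1510 CPM (median 959) in Day0 libraries. Padi4, the arginine deiminase of neutrophil extracellular traps, changed least (1.41 ± 0.43, adjusted p = 0.0133), overlapped, and lost its call without Week2_Gata2 replicate 1, without the 3 Week2 libraries of low TEC share and in limma voom. Secondary granule genes, which neutrophil precursors switch on at the myelocyte stage, were among the largest changes. Ltf, which encodes lactoferrin, had 20750, 3903 and 4054 CPM in Week2 Gata2-labelled and 13120, 10900 and 4569 CPM in Week2 WT libraries, against 16, 19.8 and 49.1 CPM and 3.86 and 18.2 CPM in Day0 Gata2-labelled and WT libraries (8.97 ± 0.82, adjusted p = 3.47e-06). Ngp, the neutrophilic granule protein gene, had 22790, 5592 and 5333 CPM and 18310, 14230 and 5953 CPM in the same Week2 sets, against 43.8, 45.5 and 89.3 CPM and 40.9 and 39.8 CPM in Day0 (7.89 ± 0.58, adjusted p = 5.56e-07). For both genes the lowest Week2 library was more than an order of magnitude above the highest Day0 library, and both were highest in Week2_Gata2 replicate 1, followed by Week2_WT replicate 1. Camp (a cathelicidin) and Lcn2 (an iron siderophore-binding lipocalin) changed by 7.50 ± 0.66 and 7.82 ± 0.66.

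Genes of the last maturation steps rose as well, and Retnlg and Mmp9 had larger fitted folds than Ltf. Retnlg, a resistin-like gene of mature neutrophils, had 1724, 413 and 762 CPM in Week2 Gata2-labelled and 1071, 2270 and 125 CPM in Week2 WT libraries, against 0.0651, 0.259 and 1.05 CPM and 0 and 0.147 CPM in Day0 (11.71 ± 1.15, adjusted p = 6.37e-06). Mmp9, a gelatinase of tertiary granules, had 3250, 603 and 1200 CPM and 1679, 3432 and 456 CPM in Week2 Gata2-labelled and WT libraries, against 1.09, 0.411 and 1.59 CPM and 2.42 and 1.26 CPM in Day0 (10.37 ± 0.80, adjusted p = 7.82e-07). The surface proteins Cd177 and Ly6g changed by 8.62 ± 0.65 and 8.43 ± 0.74, the calcium-binding alarmins S100a8 and S100a9 by 7.78 ± 0.71 and 7.82 ± 0.74, and Cxcr2, the chemokine receptor for marrow exit, by 4.87 ± 0.90. Mxd1, a MAX partner that opposes MYC, rose to 961, 252 and 312 CPM in Week2 Gata2-labelled and 481, 848 and 174 CPM in Week2 WT libraries, against 40.01, 50.2 and 45.4 CPM and 5.25 and 47.2 CPM in Day0 (3.82 ± 0.61, adjusted p = 3.51e-04).

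The promoters of 4 of these neutrophil genes are shown because C/EBP factors, which drive granule genes, bind the half-palindrome TTGCNNAA and Cebpe is itself among the rises below. Each line gives the 250 bases before the RefSeq start in GRCm38.p6, 5′ to 3′ on the gene's strand, with the match on either strand in capitals.
Ltf (chr9:111019042-111019291, plus strand): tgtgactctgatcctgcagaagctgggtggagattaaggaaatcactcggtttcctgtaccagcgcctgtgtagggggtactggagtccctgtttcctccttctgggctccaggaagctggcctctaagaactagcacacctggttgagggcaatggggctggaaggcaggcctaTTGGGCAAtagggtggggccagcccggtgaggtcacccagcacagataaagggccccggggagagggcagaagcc
Lcn2 (chr2:32387740-32387989, minus strand): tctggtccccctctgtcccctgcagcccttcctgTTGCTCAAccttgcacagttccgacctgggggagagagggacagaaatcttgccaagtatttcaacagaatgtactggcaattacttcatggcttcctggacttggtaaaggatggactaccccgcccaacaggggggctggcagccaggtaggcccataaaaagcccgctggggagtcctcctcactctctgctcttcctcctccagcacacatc
Retnlg (chr16:48872358-48872607, plus strand): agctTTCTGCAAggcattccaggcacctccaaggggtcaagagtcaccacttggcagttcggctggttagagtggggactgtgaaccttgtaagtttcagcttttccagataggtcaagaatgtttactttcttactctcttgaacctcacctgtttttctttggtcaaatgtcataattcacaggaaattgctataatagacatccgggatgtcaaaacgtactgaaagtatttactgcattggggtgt
Ly6g (chr15:75155011-75155260, plus strand): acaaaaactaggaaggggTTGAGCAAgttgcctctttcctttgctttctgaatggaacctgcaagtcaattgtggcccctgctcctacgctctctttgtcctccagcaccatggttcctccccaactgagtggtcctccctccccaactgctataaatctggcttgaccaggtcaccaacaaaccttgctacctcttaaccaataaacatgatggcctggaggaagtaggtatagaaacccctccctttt
TTGCNNAA, searched on both strands, was in 8 of the 20 neutrophil genes that had a window (40%: Ltf, Ngp, Lcn2, Mmp8, S100a9, Retnlg, Ly6g and Anxa1) and in 2582 of 27025 gene windows (9.55%). It was in none of 12 windows of the pre-B list and in 2 of 18 of the stem cell list. In Ltf the match overlaps CCAAT, as it did in 66 genes of all. CCAAT itself was in 40% of the neutrophil windows and 34.5% of all. A match is a stretch of letters, not a bound site.

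Primary granule genes, which progenitors make first, gave few calls: 3 of 14 were higher, 1 was lower and the median was 0.27. The sign of that median depended on the setting, since limma voom gave -0.50 with 7 genes lower and leaving out Week2_Gata2 replicate 1 gave -0.42. Elane, neutrophil elastase, had 2452, 406 and 433 CPM in Week2 Gata2-labelled and 942, 1559 and 468 CPM in Week2 WT libraries, against 814, 509.8 and 939.6 CPM and 214 and 927 CPM in Day0 (0.65 ± 0.52, adjusted p = 0.302). Mpo, myeloperoxidase, had 5290, 734 and 1011 CPM and 1715, 3387 and 1056 CPM in Week2 Gata2-labelled and WT libraries, against 4252, 3697 and 5690 CPM and 1197 and 3114 CPM in Day0 (-0.57 ± 0.51, adjusted p = 0.357). Both overlapped widely, so a difference in either was not detectable at this spread. Fcnb, a ficolin made slightly later, was higher by 4.90 ± 0.53 (adjusted p = 1.50e-05), as were Ctsc, which activates granule proteases (2.08 ± 0.36), and Igsf6 (2.13 ± 0.46). Calr, the chaperone calreticulin, was the gene called lower (-1.06 ± 0.28, adjusted p = 0.00550), and Cst7, a cystatin, was not called (-1.11 ± 0.45, adjusted p = 0.0522).

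**Figure D3:**
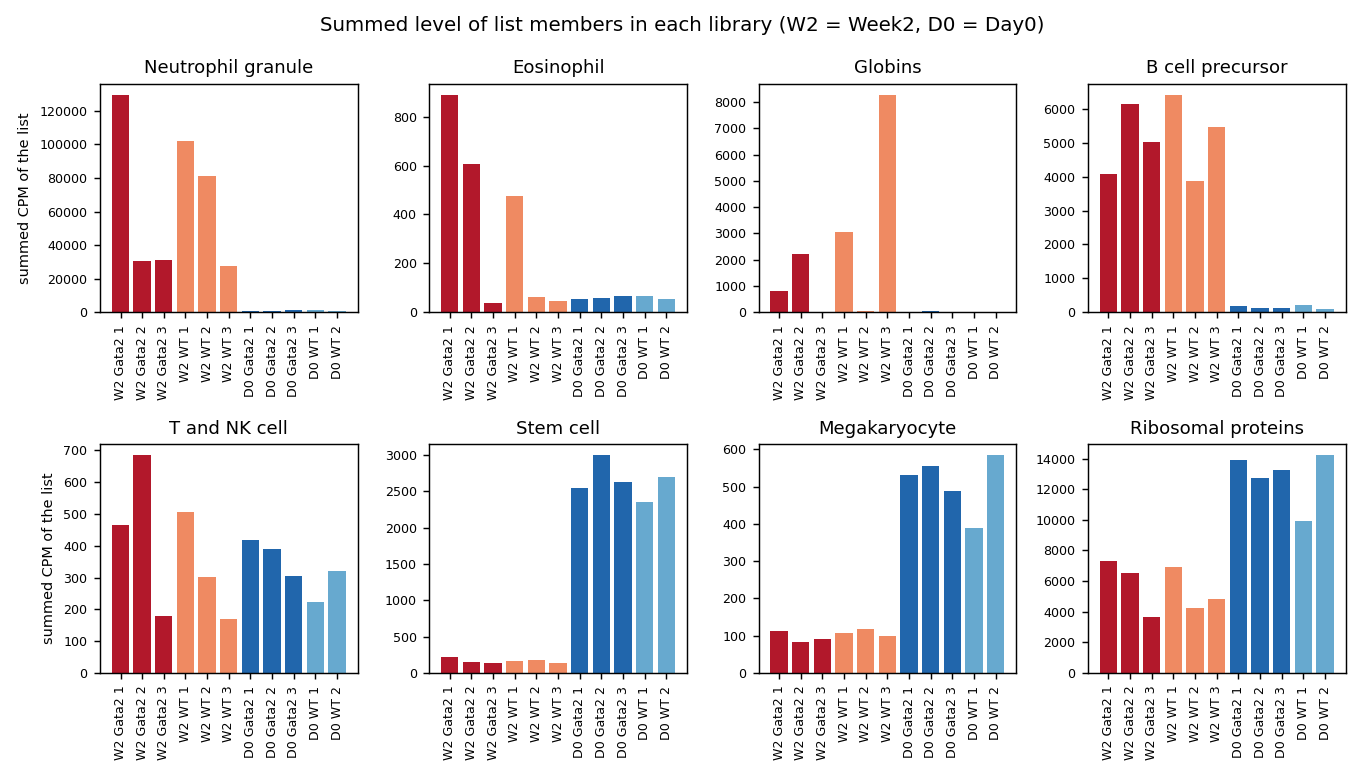
Summed TMM-scaled CPM of 8 gene lists in each library (bars start at 0), in the order Week2 Gata2-labelled, Week2 WT, Day0 Gata2-labelled and Day0 WT. Neutrophil and B cell precursor sums are higher in every Week2 library, stem cell, megakaryocyte and ribosomal protein sums are higher in every Day0 library, T and natural killer cell sums overlap, and the globin sum is high in 4 Week2 libraries, at 24.03 CPM in the lowest and 8283 CPM in the highest.

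Of 14 transcription factors of myeloid cells 7 were higher and 3 lower, where 39% of all genes were higher and 16.6% lower. Cebpe, the C/EBP factor of secondary granule formation, had 356, 69.1 and 59.0 CPM in Week2 Gata2-labelled and 223, 161 and 74.5 CPM in Week2 WT libraries, against 10.2, 7.37 and 11.5 CPM and 0.314 and 11.5 CPM in Day0 (4.32 ± 0.75, adjusted p = 6.10e-04). Cebpa, which acts at the earlier branch into the granulocyte-monocyte line, was lower by -1.65 ± 0.43 (adjusted p = 0.00538) with overlap, and Cebpd and Id2 were higher by 2.20 ± 0.45 and 2.38 ± 0.33. Runx3 fell by 2.05 on the log2 scale to 23.9 ± 5.88 CPM in Week2, against 100 ± 6.22 CPM in Day0. Irf5 rose by 1.43 to 166 ± 12.99 CPM in Week2, against 61.6 ± 16.2 CPM in Day0, and Spi1, the PU.1 gene, was not called (0.73 ± 0.31, adjusted p = 0.0597).

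Receptors and oxidase subunits of innate cells rose with them: 20 of 23 were higher, 17 past the fold of 2 and 15 without overlap, and none was lower (median 2.34). The formyl peptide receptors Fpr1 and Fpr2 and the complement receptor C5ar1 averaged 107 ± 82.5, 47.9 ± 32.2 and 229.9 ± 168 CPM in Week2, against 0.178 ± 0.123, 0.216 ± 0.172 and 1.90 ± 1.23 CPM in Day0. Cybb and Cyba, which form the membrane part of the phagocyte NADPH oxidase, changed by 4.19 ± 0.55 and 2.27 ± 0.30, and its cytosolic subunits Ncf1 and Ncf4 by 2.34 and 2.11. Clec4d, a C-type lectin, was not called (0.49 ± 0.59, adjusted p = 0.495).

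Monocyte genes were mixed, with 8 of 14 higher and none lower. Fn1, fibronectin, had 118, 107 and 375 CPM in Week2 Gata2-labelled and 227, 450.3 and 357 CPM in Week2 WT libraries, against 0.628 to 8.10 (median 4.71) CPM in Day0 (5.81 ± 0.65, adjusted p = 2.19e-05). Its lowest Week2 values were in Week2_Gata2 replicates 1 and 2, while Ltf and Ngp were highest in replicate 1. Ly6c2, Ccr2 and Lgmn, genes of classical monocytes and their lysosomes, changed by 2.23 ± 0.45, 2.59 ± 0.33 and 2.69 ± 0.24, while Csf1r, the macrophage growth factor receptor, and Cx3cr1 were not called (0.14 ± 0.31 and 0.03 ± 0.28). Of 14 macrophage genes 5 were higher, among them Slc40a1, the iron exporter ferroportin (3.55 ± 0.59), Siglec1 (2.75 ± 0.43) and Vcam1 (2.07 ± 0.34), and Cd163, the haptoglobin-haemoglobin receptor, was lower (-1.96 ± 0.33, adjusted p = 4.73e-04). The complement genes C1qa, C1qb and C1qc, which tissue macrophages express strongly, were not called. The share of macrophage genes called higher was no larger than the 39% of all genes. Among protein-coding genes with at least 5 CPM in a group 20.1% were higher. The list median of 0.50 was 1.43 within the Gata2 label and -0.320 within WT. Without the 3 Week2 libraries of low TEC share the median was -0.57 with 5 genes lower.

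Dendritic cell and antigen presentation genes gave a similar partial picture. Of 12 dendritic cell genes 6 were higher and 1 was lower, where 39% of all genes were higher and 16.6% lower. Ly6d, which also marks B-committed lymphoid progenitors, ranged over 468 to 1063 (median 750.0) CPM in Week2 and 3.45 to 10.6 (median 7.25) CPM in Day0 (6.84 ± 0.34, adjusted p = 2.71e-08). Siglech, a plasmacytoid dendritic cell receptor, rose by 2.88 ± 0.44, whereas Bst2, another marker of these cells and an interferon target, fell by 1.27. Of 10 class II genes 6 were higher, with Cd74, the invariant chain, at 1404 ± 412 CPM in Week2 and 218 ± 23.7 CPM in Day0 (2.69 ± 0.23). The transactivator of these genes, Ciita, averaged 42.8 ± 9.67 CPM in Week2 and 8.02 ± 2.06 CPM in Day0 (2.42 ± 0.24), and H2-DMb2 changed by 2.94 ± 0.22. H2-DMa, which works with the DMb chains in peptide loading, went the other way (-1.16 ± 0.20, adjusted p = 5.16e-04).

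Genes of B cell precursors were higher in every Week2 library. All 14 pre-B genes were higher, past the fold of 2 and without overlap, with a median of 4.81. The list summed to 3888 to 6430 CPM (median 5258) in Week2 and 109 to 212 CPM (median 137) in Day0, and the count of 14 held in every alternative setting. Cd79a, a signalling chain of the B cell receptor, had 877, 1199 and 1127 CPM in Week2 Gata2-labelled and 1429, 813 and 1257 CPM in Week2 WT libraries, against 20.5, 13.3 and 10.04 CPM and 39.9 and 9.69 CPM in Day0 (5.91 ± 0.41, adjusted p = 3.56e-07). Vpreb3, which binds newly made receptor chains, had 384, 631 and 445 CPM and 623, 331 and 570.2 CPM in Week2 Gata2-labelled and WT libraries, and Day0 libraries had 3.52 to 8.30 (median 4.73) CPM (6.50 ± 0.35, adjusted p = 3.84e-08). The spread among the 6 Week2 libraries was narrower for these 2 genes than for Ltf or Retnlg, but the surrogate light chain genes Vpreb1, Vpreb2 and Igll1 ranged over 36.6 to 213, 3.23 to 26.04 and 66.0 to 324 CPM in Week2. The factors that set B cell identity rose together: Ebf1 ranged over 248 to 364 (median 323) CPM in Week2 and 2.26 to 29.1 (median 5.38) CPM in Day0 (5.26 ± 0.62). Pax5, Bach2 and Lef1 changed by 4.89 ± 0.46, 3.89 ± 0.28 and 4.23 ± 0.24. The highest Day0 value of Ebf1 was in Day0_WT replicate 1, the library that stands apart.

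Early lymphoid genes were split, with 5 of 11 lymphoid priming genes higher and 3 lower. Of all genes 39% were higher and 16.6% lower, so these counts alone do not set the list apart. Rag1, a recombinase subunit, ranged over 99.3 to 179 (median 155) CPM in Week2 and 0 to 2.08 (median 1.49) CPM in Day0 (7.13 ± 0.61, adjusted p = 1.92e-06), and its partner Rag2 changed by 2.80 ± 0.30. Il7r, the interleukin-7 receptor chain, was higher by 3.28 ± 0.48, as were Ltb (1.19 ± 0.24), a lymphotoxin chain, and Ccr9 (1.69 ± 0.39), a chemokine receptor. Dntt, the terminal transferase that lymphoid-primed progenitors already express, went the other way, with 49.2, 109.5 and 30.4 CPM in Week2 Gata2-labelled and 143, 76.6 and 54.9 CPM in Week2 WT libraries, against 364, 302 and 428 CPM and 226 and 261 CPM in Day0 (-2.05 ± 0.36, adjusted p = 6.93e-04). Flt3, the receptor of multipotent and lymphoid-primed progenitors, ranged over 10.1 to 18.5 (median 16.2) CPM in Week2 and 478 to 550.0 (median 516) CPM in Day0 (-5.09 ± 0.18, adjusted p = 2.75e-09). Satb1, a chromatin organiser of the same cells, changed by -1.97 ± 0.17.

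Later B cell genes were also up, with 13 of 15 higher and none lower (median 4.09). Ms4a1, the CD20 gene, ranged over 178 to 442 (median 317) CPM in Week2 and 0 to 1.16 (median 0.716) CPM in Day0 (9.15 ± 0.57, adjusted p = 1.43e-07). Ighd and Ighm, heavy chain constant regions, changed by 4.48 ± 0.21 and 4.23 ± 0.29. Irf4, needed for light chain rearrangement and for plasma cells, changed by 6.52 ± 0.34. The plasma cell gene Jchain, which joins antibody units, was not called: Week2 libraries had 88.6, 341 and 3.90 CPM under the Gata2 label and 59.7, 0.697 and 1.004 CPM under WT, a wide spread around the Day0 range of 81.7 to 166 (median 99.4) CPM (-0.92 ± 1.22, adjusted p = 0.542). Xbp1, the plasma cell secretory factor, was not called either.

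T and natural killer cell genes were at low levels in both groups, with a summed 169.6 to 685 CPM (median 384) in Week2 and 225 to 417 CPM (median 319) in Day0. Of 20 genes 11 were higher and 2 were lower, and 8 of the rises were of natural killer genes, the other 3 being the T cell receptor complex genes Cd3d, Cd3g and Trac. Nkg7, the remaining natural killer gene of the list, was not among the rises. It had the most counts of the list in both groups, 179624 over the deeper Week2 libraries and 51385 over the Day0 ones. It thus weighs most in the summed levels. Gzma, a granule protease, had 34.8, 142 and 15.4 CPM in Week2 Gata2-labelled and 93.4, 25.3 and 14.4 CPM in Week2 WT libraries, against 0 to 2.12 (median 1.02) CPM in Day0 (5.67 ± 0.89, adjusted p = 3.17e-04). The genes Prf1 (perforin), Eomes and Ncr1 changed by 4.41 ± 0.62, 3.24 ± 0.56 and 2.96 ± 0.53. Lat, an adaptor of T cell and platelet signalling, and Bcl11b, a T cell commitment factor, were lower, by -2.69 ± 0.30 and -1.72 ± 0.34. Without the 3 Week2 libraries of low TEC share 7 of the 20 were higher and 4 lower.

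Megakaryocyte genes were mostly lower too. Of 18 genes 13 were lower, 11 without overlap, and 1 was higher. The median was -2.87, and the list summed to 83.8 to 118 CPM (median 103) in Week2 and 388 to 584 CPM (median 532) in Day0. Itga2b, the CD41 integrin chain found on megakaryocytes and early progenitors, ranged over 5.11 to 10.52 (median 7.07) CPM in Week2 and 135 to 288 (median 261) CPM in Day0 (-5.01 ± 0.27, adjusted p = 4.61e-08). Pf4, platelet factor 4, and Gp9, a subunit of the von Willebrand factor receptor, changed by -4.35 ± 0.44 and -3.93 ± 0.41. Itgb3, the integrin chain that pairs with CD41 on platelets and with other chains elsewhere, went the other way, with 38.9 to 72.0 (median 50.4) CPM in Week2 and 7.58 to 33.4 (median 24.8) CPM in Day0 (1.23 ± 0.32, adjusted p = 0.00592). Gp6, the collagen receptor, was not called (2.02 ± 1.09, adjusted p = 0.134). With a filter of 5 CPM, which tests fewer of them, 8 were lower.

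Globin genes varied widely between the Week2 libraries. Hbb-bs, an adult beta globin gene, had 395, 1113 and 10.1 CPM in Week2 Gata2-labelled and 1473, 12.3 and 3777 CPM in Week2 WT libraries, against 4.49 to 11.9 (median 5.84) CPM in Day0. Hba-a1, an adult alpha globin gene, had 271, 651 and 7.32 CPM and 956, 8.44 and 2869 CPM in the same Week2 sets, against 4.62 to 11.6 (median 6.67) CPM in Day0. So 4 Week2 libraries lay far above Day0, and Week2_Gata2 replicate 3 and Week2_WT replicate 2 lay at about the Day0 level. The fitted log2 fold changes were 6.99 ± 1.46 (adjusted p = 0.00181) and 6.28 ± 1.38 (adjusted p = 0.00239), and 4 of 6 globin genes were called higher, none without overlap. Hba-a1 and Hba-a2, and likewise Hbb-bs and Hbb-bt, are near-identical copies whose reads the counting may have split, so their separate values are uncertain. All 4 calls were lost without the 3 Week2 libraries of low TEC share. Hba-x, an embryonic globin, was not called (-1.54 ± 0.68, adjusted p = 0.0710).

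The promoters of the 2 globin genes named are shown because the CCAAT box is a classical element of globin promoters. Each line gives the 250 bases before the RefSeq start in GRCm38.p6, 5′ to 3′ on the gene's strand, with CCAAT in capitals.
Hba-a1 (chr11:32283422-32283671, plus strand): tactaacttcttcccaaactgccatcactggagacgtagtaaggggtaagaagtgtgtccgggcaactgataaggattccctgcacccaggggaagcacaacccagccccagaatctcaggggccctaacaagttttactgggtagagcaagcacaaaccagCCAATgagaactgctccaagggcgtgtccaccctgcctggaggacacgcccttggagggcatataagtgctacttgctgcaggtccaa
Hbb-bs (chr7:103827929-103828178, minus strand): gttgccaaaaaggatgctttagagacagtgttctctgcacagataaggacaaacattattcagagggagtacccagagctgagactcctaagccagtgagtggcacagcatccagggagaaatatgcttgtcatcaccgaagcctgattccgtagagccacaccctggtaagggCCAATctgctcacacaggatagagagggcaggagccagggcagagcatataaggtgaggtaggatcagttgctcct
CCAAT, searched on both strands, was in 5 of 6 globin windows (83.3%) and in 9314 of 27025 gene windows (34.5%). The GATA motif AGATAA, also on both strands, was in 1 of 6 globin windows, in 4 of 11 red cell membrane windows (36.4%: Epb42, Rhd, Kel and Icam4), in none of 18 stem cell windows and in 2771 of all (10.3%).

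Other red cell genes gave fewer calls. Alas2, the first enzyme of red cell heme synthesis, had 46.4, 86.6 and 3.95 CPM in Week2 Gata2-labelled and 123.2, 2.05 and 375 CPM in Week2 WT libraries, against 0.179 to 2.08 (median 1.72) CPM in Day0 (5.76 ± 1.26, adjusted p = 0.00232), the same 2 Week2 libraries being lowest. It was the only one of 12 heme synthesis genes that was called. Fech, the last enzyme, and Alad, the second, were not (0.77 ± 0.46 and -0.59 ± 0.34). Slc4a1, the band 3 anion exchanger, changed by 5.93 ± 1.51, and 6 of 17 membrane genes were higher and 2 lower, among them Gypc (-1.23 ± 0.28). The share of membrane genes called higher was no larger than the 39% of all genes. Among protein-coding genes with at least 5 CPM in a group 20.1% were higher. Without the 3 Week2 libraries of low TEC share 1 membrane gene was higher. The Slc4a1 and Alas2 calls were lost without that trio too, and the Slc4a1 call also in limma voom.

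Of 18 erythroid regulators and enzymes, early and late ones together, 4 were higher and 7 lower, but 2 were lower without any one of the 3 Day0_Gata2 libraries or without Day0_WT replicate 2, and 3 with a replicate block or under upper quartile scaling. Gata1, the factor that replaces GATA2 in red cell and megakaryocyte precursors, had 14.9, 19.7 and 1.85 CPM in Week2 Gata2-labelled and 21.9, 1.13 and 24.8 CPM in Week2 WT libraries, all below the Day0 range of 36.5 to 58.7 (median 42.4) CPM (-1.70 ± 0.63, adjusted p = 0.0340). Its cofactor Zfpm1 and the transferrin receptor Tfr2 changed by -2.17 ± 0.18 and -4.04 ± 0.60. Tfrc, the transferrin receptor of dividing cells in general, was higher (2.40 ± 0.28). Klf1, the globin-activating factor, was not called, ranging over 0.303 to 71.6 (median 39.5) CPM in Week2 and 14.7 to 43.1 (median 28.0) CPM in Day0 (0.14 ± 0.97, adjusted p = 0.914).

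Mast cell and basophil genes were more often lower, and eosinophil genes higher. Cpa3, a mast cell protease also found in progenitors, and the basophil proteases Mcpt8 and Prss34 were lower, by -2.15 ± 0.28, -1.60 ± 0.22 and -1.76 ± 0.28, and 6 of 12 genes of the list were lower against 3 higher. Tpsab1, a tryptase, was called higher but at 1.07 ± 0.857 CPM in Week2 and 0.0711 ± 0.114 CPM in Day0, and its call was lost without the 3 Week2 libraries of high TEC share. Of 10 eosinophil genes 6 were higher and none lower. Prg2, eosinophil major basic protein, had 476, 311 and 4.33 CPM in Week2 Gata2-labelled and 256, 8.06 and 5.26 CPM in Week2 WT libraries, against 15.3 to 18.8 (median 17.1) CPM in Day0 (3.25 ± 1.12, adjusted p = 0.0259), so that 3 Week2 libraries lay above Day0 and 3 below it. The high trio, Week2_Gata2 replicates 1 and 2 and Week2_WT replicate 1, is also the trio of low TEC share, and without it the list median dropped to 0.13, with 3 genes higher and 2 lower, and the Ear1 call was lost. Il5ra, the interleukin-5 receptor, was higher without overlap (4.08 ± 0.47, adjusted p = 2.81e-05), and Prg3 changed by 4.49 ± 0.52. Ear1 and Ear6 belong to a family of close copies, so their separate values are uncertain.

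Cytokine receptors went both ways, with 9 of 20 higher and 6 lower, where 39% of all genes were higher and 16.6% lower. Among the falls, besides Flt3, Kit and Tek, were those of Il1r1 (-3.25 ± 0.34) and Il3ra (-0.84 ± 0.19). Ccr1 and Cxcr2, receptors of mature myeloid cells, rose most (5.56 ± 0.85 and 4.87 ± 0.90). Csf3r, the G-CSF receptor, was not called, at 98.8 to 836 (median 270.4) CPM in Week2 and 266 to 314 (median 300.4) CPM in Day0 (0.33 ± 0.46, adjusted p = 0.557). Among homing and adhesion genes 5 of 12 were higher and 2 lower, about the shares of all genes (39 and 16.6%). For protein-coding genes with at least 5 CPM in a group the shares were 20.1% higher and 32.7% lower. Cxcr4, the receptor that holds blood cells in marrow, was higher (1.35 ± 0.17, adjusted p = 6.28e-05), as was Itgb2, the beta chain of leukocyte integrins (3.33 ± 0.38). Esam, an endothelial adhesion protein used to mark stem cells, was lower (-4.85 ± 0.25).

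Stromal and endothelial genes were included as markers of cells that should be absent. Of 16 tested 9 were higher and 2 lower, but at low levels, except for Pecam1, which blood cells also express (162 ± 20.8 CPM in Week2 and 111 ± 19.97 CPM in Day0). Acta2, smooth muscle actin, Lepr, the leptin receptor, and Adipoq, adiponectin, averaged 5.40 ± 3.77, 3.54 ± 2.44 and 1.16 ± 0.644 CPM in Week2 and 0.0742 ± 0.0449, 0.166 ± 0.0953 and 0.0179 ± 0.0246 CPM in Day0. Emcn, endomucin, was lower (-2.05 ± 0.62), a call lost under upper quartile scaling, which moved the median of all genes by 0.27, with a filter of 5 CPM, with thinned counts and without the 3 Week2 libraries of low TEC share. With that filter, which tests fewer of them, 1 stromal gene was higher and the list median turned to -1.42.

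Growth and cell cycle genes separated from each other. Myc, the driver of ribosome production and growth, had 129, 97.5 and 57.5 CPM in Week2 Gata2-labelled and 91.6, 75.7 and 72.3 CPM in Week2 WT libraries, against 839, 857 and 1085 CPM and 680.3 and 820.5 CPM in Day0 (-3.27 ± 0.21, adjusted p = 1.69e-07). Of 18 genes of the MYC and ribosome biogenesis list 16 were lower, 15 without overlap, and none was higher (median -1.29). The list summed to 1355 to 2741 CPM (median 1962) in Week2 and 4182 to 6147 CPM (median 5775) in Day0. Polr1b, a subunit of RNA polymerase I, Ppan, a ribosome assembly factor, and Npm1, nucleophosmin, changed by -1.91 ± 0.19, -1.68 ± 0.16 and -1.52 ± 0.27, and Bop1 was not called (-0.25 ± 0.33, adjusted p = 0.538). All 20 ribosomal protein genes were lower without overlap, 5 of them past the fold of 2, with a narrow range from -1.68 ± 0.20 for Rpl10a to -0.97 ± 0.19 for Rps19. The count of 20 held in every alternative. The E-box CACGTG, to which MYC and MAX bind, was in none of 13 windows of the biogenesis list and in 1634 of all (6.05%), on both strands. At that share the lack of a match in 13 windows says little, and only the 250 bases before the start were searched.

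Genes of DNA replication and mitosis gave counts that depended on the setting. Of 21 S phase genes 4 were lower and 1 was higher, and the median was -0.28, but 14 were lower with the TEC share in the fit and 11 in limma voom and without the 3 Week2 libraries of low TEC share. Pcna and Mcm4 averaged 230.5 ± 67.7 and 239 ± 67.2 CPM in Week2 and 235 ± 42.0 and 251 ± 63.1 CPM in Day0. Cdt1, which loads the replicative helicase, and Chaf1b, a histone chaperone, were lower (-0.77 ± 0.17 and -0.89 ± 0.21). Rrm2, the regulated subunit of ribonucleotide reductase, was the exception, at 584 ± 187 CPM in Week2 and 153 ± 33.9 CPM in Day0 (1.99 ± 0.24, adjusted p = 3.44e-05). Of 20 G2 and mitosis genes 10 were higher, none of them past the fold of 2, and the median was 0.57. Mki67 was not called (0.11 ± 0.17, adjusted p = 0.594). Kif11, a spindle motor, and Nusap1 were the clearest rises (1.12 ± 0.22 and 1.24 ± 0.26). The count of 10 moved to 2 without the 3 Week2 libraries of low TEC share, to 16 under upper quartile scaling, to 4 without Week2_Gata2 replicate 1 or 2 or Week2_WT replicate 1 or 3, and to 5 and 6 without Day0_Gata2 replicate 3 and Day0_WT replicate 1. Among replication-dependent histone genes 1 of 11 was higher and 1 lower.

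Regulators of the G1 phase were split. Cdk6 had 101, 55.9 and 50.1 CPM in Week2 Gata2-labelled and 60.9, 72.6 and 55.9 CPM in Week2 WT libraries, against 733, 666 and 652 CPM and 668 and 644 CPM in Day0 (-3.34 ± 0.20, adjusted p = 9.06e-08). Ccnd2, a D-type cyclin that activates it, changed by -1.57 ± 0.23. Ccnd3, the D-type cyclin of B cell precursors and other blood progeny, had 1327, 832 and 615 CPM and 1059, 796 and 893 CPM in Week2 Gata2-labelled and WT libraries, above the Day0 range of 304 to 351 (median 320.4) CPM (1.497 ± 0.20, adjusted p = 8.19e-05). E2f2, a cell cycle transcription factor, was the largest rise of the list and had little spread, with 547, 534 and 447 CPM and 579, 416 and 569 CPM in the Week2 Gata2-labelled and WT libraries and 41.3, 33.5 and 38.6 CPM and 35.6 and 33.9 CPM in the Day0 ones (3.82 ± 0.17, adjusted p = 1.26e-08). E2f1 was lower by -0.70 ± 0.16, and the CDK inhibitor genes Cdkn2d and Cdkn2c were higher by 2.10 ± 0.24 and 1.38 ± 0.27 while Cdkn1a was lower by -1.01 ± 0.16.

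**Figure D4:**
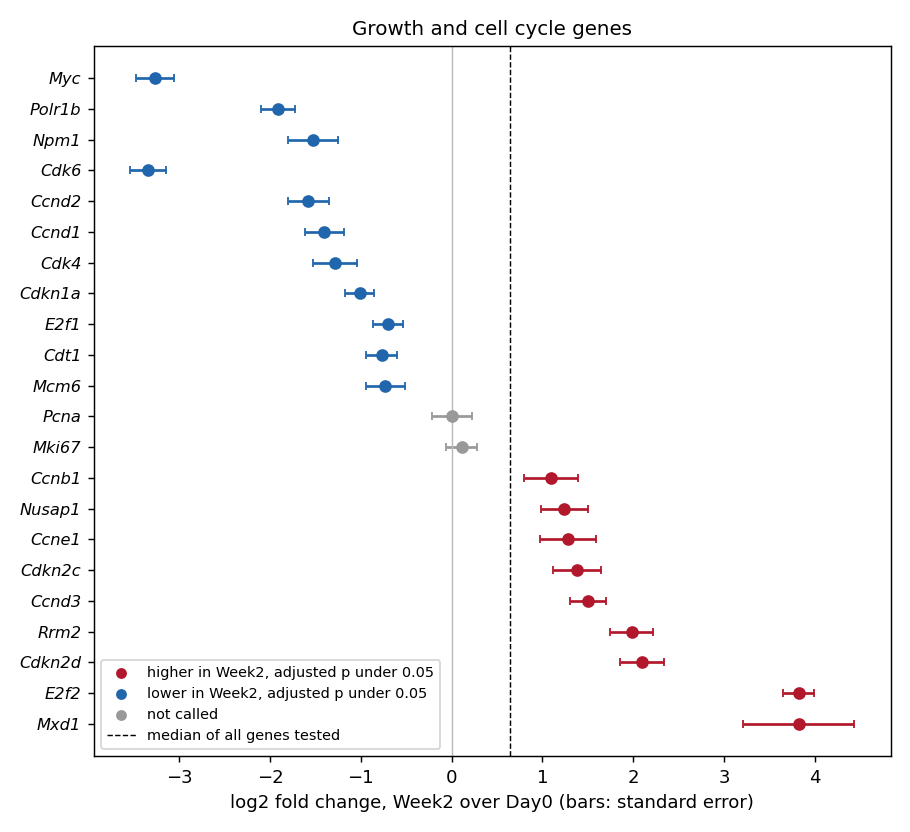
Log2 fold change of Week2 marrow over Day0 LSK cells with its SE (horizontal axis) for 22 genes of ribosome production, replication, mitosis and cell cycle control. Myc and Cdk6 lie furthest to the left (-3.27 and -3.34), E2f2 and Mxd1 furthest to the right (3.82 and 3.82), and Pcna and Mki67 lie near 0.

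Energy metabolism genes gave few calls. Of 20 nuclear genes of oxidative phosphorylation only Ndufa4 was called (-0.98 ± 0.28, adjusted p = 0.00877), and its call was lost without Day0_WT replicate 2 and without the 3 Week2 libraries of high TEC share. Entering the TEC share in the fit gave 13 of the 20 as lower, and without the 3 Week2 libraries of low TEC share 7 were. Of 13 mitochondrially encoded genes 6 were lower, among them mt-Nd2 and mt-Co1 (-1.41 ± 0.32 and -0.79 ± 0.23). The mitochondrial sum was 9321 CPM in Day0_WT replicate 1 and 3376 to 4613 CPM in the other Day0 libraries. Without Day0_WT replicate 1 the list median was -0.24, where it was -0.59 with all libraries. Without the 3 Week2 libraries of high TEC share none of the 13 was called lower. Of 16 glycolysis genes 3 were higher and 4 lower. Slc16a3, a lactate exporter of glycolytic cells, was higher (3.52 ± 0.53), and Pfkl, a phosphofructokinase subunit, and Pdk1, which keeps pyruvate from mitochondria, were lower (-1.77 ± 0.24 and -1.62 ± 0.25).

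Chromatin regulators mostly fell, with 9 of 16 lower and 3 higher. Dnmt3b, a DNA methyltransferase of early progenitors, had 15.97 to 20.9 (median 19.1) CPM in Week2 and 130.4 to 214 (median 169.9) CPM in Day0 (-3.22 ± 0.17, adjusted p = 3.71e-08). Hmga2, an architectural factor linked to stem cell self-renewal, and Tet1, a methylcytosine oxidase, changed by -4.23 ± 0.38 and -2.39 ± 0.21, and Stag2, a cohesin subunit, was higher by 1.04 ± 0.21. Dnmt1, which copies methylation in dividing cells, was not called (-0.27 ± 0.26, adjusted p = 0.404).

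The genes of largest fold over the whole table were taken by rule from protein-coding genes that passed the test against a fold of 2, did not overlap and reached 50 CPM in the higher group, of which there were 507 higher and 496 lower. The 15 largest rises were Retnlg, Mmp9, Mmp8, Il1f9, Ms4a1, Fpr1, Ltf, Col5a3, Steap4, Cd177, Slfn4, Itgb2l, Dhrs9, Ly6g and Fcrla, from 11.71 to 8.40 on the log2 scale. Col5a3, a fibrillar collagen chain, was none of the listed lineage genes, and averaged 475 ± 198 CPM in Week2 (SD, n = 6) and 1.05 ± 0.236 CPM in Day0 (SD, n = 5; 8.78 ± 0.40, adjusted p = 1.55e-08). Steap4, a metalloreductase, and Il1f9, an interleukin-1 family cytokine, averaged 77.4 ± 28.5 and 60.0 ± 46.1 CPM in Week2 and 0.180 ± 0.112 and 0.0795 ± 0.0646 CPM in Day0.

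The 15 largest falls included Efcc1, Ctla2a, Ltbp3, Mdga1, Hlf, Tie1, Meis1, Adgrl4, Rab38, Hoxa9, Smo, Cd34, Sorbs3 and Muc13, and ran from -7.42 to -5.42. Efcc1, a coiled-coil gene, averaged 0.295 ± 0.0364 CPM in Week2 and 50.7 ± 7.65 CPM in Day0 (-7.42 ± 0.22, adjusted p = 1.81e-09). Tie1, an angiopoietin co-receptor shared by endothelium and stem cells, averaged 1.38 ± 0.524 CPM in Week2 and 91.1 ± 14.7 CPM in Day0. Smo, the Hedgehog signal transducer, averaged 2.02 ± 0.362 CPM in Week2 and 104 ± 13.7 CPM in Day0. Ctla2a, a cysteine protease inhibitor, changed by -6.78 ± 0.40, and Ltbp3, which stores latent TGF-beta, by -6.61 ± 0.39.

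The genotype labels were then taken apart, each Week2 set against its own Day0 set in the same fit. Within the Gata2 label 8693 genes were higher (29.7%) and 3181 lower (10.9%), and within WT 6851 were higher (23.4%) and 3496 lower (11.9%). The difference between the labels was tested itself and no gene passed (0% higher and 0% lower), with 1256 genes at an unadjusted p under 0.05 and 10 higher and 7 lower by DESeq2. All 198 list genes called higher had a positive fold change and all 162 called lower a negative one under both labels. Because these genes were called from both labels' libraries together, this agreement in sign was largely built in. Of the 198, 156 were called within the Gata2 label and 140 within WT, and of the 162 the numbers were 129 and 131. The absence of a call does not show that the labels respond alike, and it depended on 1 library. Genes passed in both directions without Day0_WT replicate 2. That fit leaves as the whole Day0_WT group replicate 1, the shallowest library, which correlated with replicate 2 at only 0.886. Some genes also passed as higher without Day0_WT replicate 1. In both cases 1 library is left in the Day0_WT group and is assumed to vary like the others. Such calls cannot tell a difference between labels from a trait of that 1 library.

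**Figure D5:**
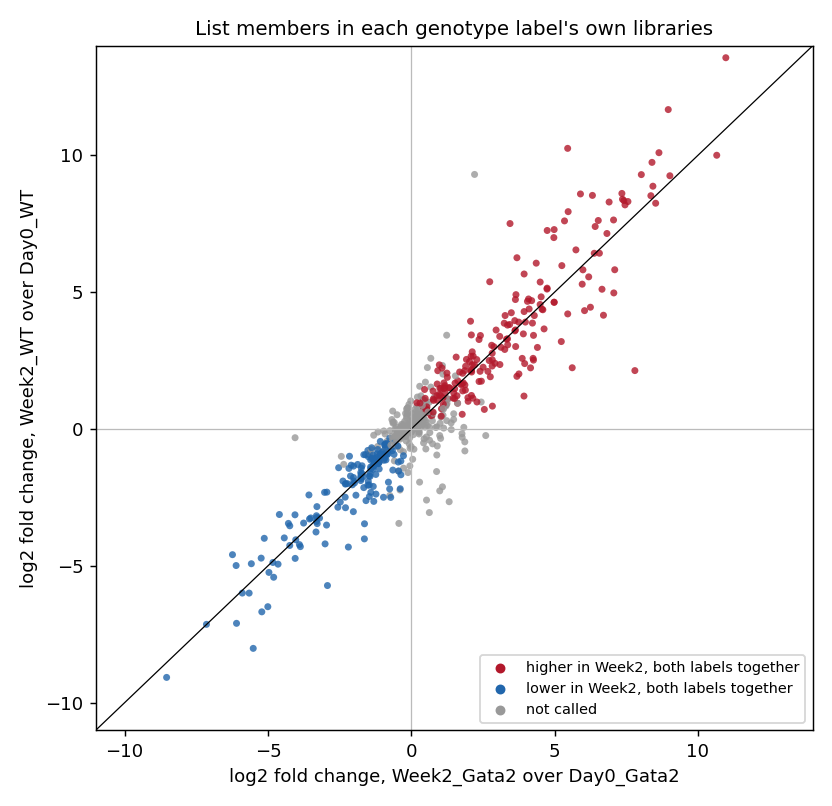
Log2 fold change of Week2 over Day0 within the Gata2 label (horizontal axis) and within the WT label (vertical axis) for the 580 tested list genes, with the line of equality. Neutrophil and B cell genes lie at the upper right and stem cell genes at the lower left under both labels. The 2 axes share no library.

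The genes of lowest p for the difference were Igkv4-57-1, Gfra1, Ighv1-4, Igkv4-50, Ighg3 and Igkv3-10, of which 5 are antibody gene segments or constant regions, and the lowest adjusted p was 0.903. For each of these 5 antibody genes, 1 Day0_WT library held nearly all of the Day0 level. Igkv3-10, for example, had a Day0 median of 0.0217 CPM and a highest Day0 value of 140 CPM. Gfra1, the GDNF co-receptor, had 114, 189 and 124 CPM in Week2 Gata2-labelled and 162, 119 and 165 CPM in Week2 WT libraries, against 5.49, 4.95 and 2.85 CPM and 1.08 and 1.13 CPM in Day0 (log2 fold change 5.01 within the Gata2 label and 7.07 within WT, unadjusted p of the difference = 0.000665). Every Week2 library was above every Day0 library, and the labels differed at Day0 rather than at Week2. Of the 580 list genes 31 had an unadjusted p under 0.05 for the difference, and none passed after adjustment over all genes.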

How the data were processed

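RNA came from lineage-negative marrow cells, and 2 kits, TruSeq Stranded mRNA and SMARTer Ultra Low, served for the libraries, per the labels' protocols, with no word on which sample had which. The submitters' processing notes name Trimmomatic 0.38, STAR 2.5.2b and the mm10 build. How counts were made, and whether strand was used, is not given in the sources used here. Overlapping and antisense genes cannot be told apart. The table deposited by the authors holds raw counts per Ensembl gene for 16 libraries, and 45143 of 45706 IDs matched a symbol in GENCODE mouse release M21 (GRCm38). No column of it was left unused.

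From these counts, edgeR 4.0.16 in R 4.3.3 scaled the 11 libraries by TMM, filtered low counts and tested Week2 against Day0 with the genotype label as covariate (robust quasi-likelihood test, Benjamini-Hochberg adjustment); a fit of the 4 groups gave the contrast within each label and their difference, 5 comparisons in all with the test against a fold of 2. The SE is the log2 fold change divided by the square root of the F statistic, and SDs are over libraries. All 11 libraries entered, none was imputed, and no 2 libraries of the same group agreed within sampling noise. The gene lists and the libraries were chosen with earlier results of these data known. Named genes are Gata2, Kit, Ly6a, Cd34 and Ptprc; the 15 largest rises and 15 largest falls among protein-coding genes past the fold of 2 that do not overlap and reach 50 CPM; from each list the 3 genes of lowest p and those of lowest and highest fold change; and the 6 genes of lowest p for the label difference. Some genes that this rule names are not reported here. Promoter windows of 250 bases were taken from RefSeq (GRCm38.p6), which gave one for 425 of the 585 list genes; Ms4a1, Myc and Mmp9 are among those named without one.

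The test was tried first on simulated counts with known changes in few genes, 100 of 29050 by 2-fold and 99 by 4-fold. It recovered 5% of the 2-fold and 35.4% of the 4-fold changes, with 2 false calls. Among genes of 5 CPM or more it recovered 14.7 and 80.5%. A gene that was not called can therefore still differ. The alternatives tried were DESeq2 1.42.0, voom with quality weights from limma 3.58.1, scaling by upper quartile, by RLE or by library size alone, a filter of 5 CPM in 5 libraries or none, all 16 libraries, counts thinned to the shallowest library, no covariate, a replicate block, protein-coding genes only, removal of mitochondrial, globin, immunoglobulin and ribosomal RNA genes, sex as a covariate and each library left out. Entering the TEC share, and leaving out the 3 Week2 libraries with that share above 0.15% or the 3 below it, were chosen after seeing the data.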

Additional observations from a re-analysis of the deposited data

Results flagged for a closer look

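Among 98 sets of summed list levels and library measures, 9 had 1 library whose distance to its nearest neighbour was large for the group's range (Dixon's ratio), where chance alone picks about 1 in 20 sets. Day0_WT replicate 1 was that library in 6 of them: its heme synthesis sum was 568.3 CPM against 769.1 to 824.6 CPM in the other Day0 libraries, its nuclear oxidative phosphorylation sum 3327 CPM against 5402 to 6095 CPM, and its mitochondrially encoded sum 9321 CPM against 3376 to 4613 CPM. Protein-coding genes held 87.9% of its counts against 91.98 to 93.43%, TEC genes 0.3624% against 0.1312 to 0.1873%, and lincRNA genes 6.205% against 2.891 to 3.572%.

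The globin sum of Week2_WT replicate 3 was 8283 CPM, where the other Week2 libraries had 24.03 to 3049 CPM. The cholesterol synthesis sum of Week2_Gata2 replicate 1 was 605.9 CPM, where the other Week2 libraries had 270.7 to 394.2 CPM. The type I interferon sum of Day0_Gata2 replicate 3 was 773.6 CPM, where the other Day0 libraries had 526.6 to 587.4 CPM. Gene by gene, Day0_WT replicate 1 was the far library for 112 of the 580 tested list genes and Week2_Gata2 replicate 1 for 24. What sets these libraries apart was not tested.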

How the results depend on the processing

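No call of a named gene changed direction in any setting: of the values of named genes 5182 kept their side of the threshold, 49 lost it and 92 gained it, and of the list counts 2066 stayed within 1.5 times and 224 did not. Of the list medians 161 moved, and 11 lists changed the sign of their median in 1 or more settings (cholesterol, glycolysis, heme, histone, immediate early, interferon, macrophage, oxidative phosphorylation, primary granule, receptor and stromal genes). Upper quartile scaling moved the median of all genes by 0.27 and limma voom by -0.17. The share of calls that were higher was 70.2%, and 76.9% under upper quartile scaling, 78.7% without a filter, 59.5% with all 16 libraries, 53.6% with thinned counts, 57.6% for protein-coding genes, 56.8% without the 3 Week2 libraries of high TEC share and 49.8% with the filter of 5 CPM. With that filter, which tests fewer genes, 3130 were higher and 3152 lower (1065 and 910 past the fold of 2), and 2418 were higher within the Gata2 label and 2290 within WT. With all 16 libraries 7509 were higher (4973 past the fold of 2), with thinned counts 4883 (2603; 3766 within the Gata2 label and 2951 within WT), and with protein-coding genes only 5894 (4007; 4492 and 3217). Limma voom gave 13492 higher and 7369 lower within the Gata2 label and 1890 and 1916 within WT. The TEC share as covariate gave 5029 lower within the Gata2 label and 10786 higher within WT. Without the high TEC trio 4814 were higher (2499 past the fold of 2), 2794 higher within the Gata2 label, and 1336 higher and 1123 lower within WT. DESeq2 gave 10 higher and 7 lower genes for the label difference. Leaving out 1 library gave 7469 to 15040 higher and 3896 to 5470 lower, past the fold of 2 5222 to 11394 and 1614 to 2109, within the Gata2 label 2518 to 11304 and 1674 to 4139, within WT 1945 to 6694 and 1912 to 4165, and for the difference 0 to 913 and 0 to 2294. The libraries whose loss moved the higher count over 1.5 times were Week2_WT replicate 2 (7469) and replicate 3 (7483); past the fold of 2, Week2_Gata2 replicates 2 and 3 also did (5731 and 5358). As deviations from their group means, same-numbered Week2 and Day0 libraries correlated at -0.177 to 0.068 and differently numbered ones at -0.215 to 0.177. With means of 2 or 3 libraries such values depend on each other, so they cannot decide whether the numbers pair samples. A replicate block gave 10159 higher and 4499 lower. The causes were not tested.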

Other observations

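Response and synthesis genes outside the lineages gave a mixed picture. Of 16 type I interferon genes 7 were higher in Week2 and 2 lower (median 0.38), near the shares of all genes (39 and 16.6%). Zbp1, a nucleic acid sensor, changed by 1.68 ± 0.41, while Ifi44 fell by 1.94 on the log2 scale to 7.89 ± 1.83 CPM in Week2, against 30.5 ± 8.10 CPM in Day0. Without the 3 Week2 libraries of low TEC share 1 of the 16 was higher and 4 were lower, with a median of -0.40, and the Zbp1 call was lost. Of 14 immediate early genes 2 were higher and 5 lower (median -0.31): Egr1, Fosb and Ier3 changed by -1.67 ± 0.36, -1.92 ± 0.42 and -1.75 ± 0.33, Jund and Junb by 1.31 ± 0.19 and 0.92 ± 0.24, and Fos and Jun were not called (0.03 ± 0.29 and -0.07 ± 0.23). Of 14 cholesterol synthesis genes 2 were higher and 3 lower. Mvd, an early enzyme of the pathway, was higher by 1.59 ± 0.51, a call lost without Week2_Gata2 replicate 1 and without either trio of Week2 libraries set apart by TEC share.

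Gene classes differed as well. Of 212 antibody V segments 146 (68.9%) were higher and 1 was lower (median 4.72 on the log2 scale), and all 12 antibody J segments were higher. Unprocessed pseudogenes (328 of 432 higher, median 4.63), lincRNAs (1073 of 1748, 3.09) and processed pseudogenes (1516 of 2832, 1.99) also stood above protein-coding genes (6189 of 18731, 0.24). Beyond the antibody genes, these are genes of low level: the median of their mean CPM was 0.387 in Week2 and 0.0147 in Day0 for unprocessed pseudogenes and 0.479 and 0.0556 for lincRNAs. A gene of so low a Day0 level could pass the low-count filter only through its Week2 level, so rises in these classes were partly built in. With the filter of 5 CPM in 5 libraries the median log2 fold change over all genes tested was 0.01. Week2 libraries were deeper, and how much of the class difference the filter, depth or the library kit makes was not tested gene by gene.

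Levels here are relative to the other RNA of a library, so a change is one of share. The cell number, the purity and the chimerism of the Week2 samples are not given in the labels. A time effect within one cell type cannot be had from these libraries, because no LSK library is labelled Week2. With 2 WT libraries at Day0, one of which stands apart, the contrast within WT and the label difference are the least certain.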
